A study of Arabidopsis thaliana with 8 samples.

Results

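The insertion allele hda6-9 was set against its parent line ros1-1 with 2 arrays of ros1-1 hda6-9 seedlings and 2 arrays of ros1-1 seedlings, which are 4 of the 8 arrays in the series. Seedlings were 12 days old and had spent 1 day at 4 °C, and their RNA was hybridized to one-colour Agilent arrays. The ros1-1 line carries a mutation in ROS1, a DNA glycosylase that removes DNA methylation. The ros1-1 hda6-9 line was recovered from mutagenized ros1-1 as a suppressor of silencing, and has in addition a T-DNA in the histone deacetylase gene HDA6 shortly before its stop codon, so that the end of the protein is exchanged and the deacetylase domain stays whole. Both lines are in the C24 background and carry 1 T-DNA with the reporters RD29A::LUC and 35S::NPTII, as does the C24 line used as wild type. The other 4 arrays, from ros1-1 hda6-10 (a short deletion in the first exon of HDA6) and from C24, shared the estimate of the spread and are given only where they show how hda6-9 differs. Each mutant genotype is a single line. The labels name the 2 arrays of a genotype biological replicates without saying how the plants were grown apart. Thus p-values measure the spread between arrays of a genotype, pooled over the 4 genotypes. The 2 arrays of ros1-1 hda6-10 lay on 1 slide, as did those of C24. Those of ros1-1 hda6-9 and of ros1-1 lay on different slides.

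HDA6 removes acetyl groups from histones and is known in Arabidopsis for keeping transposons, repeats, ribosomal DNA and silenced transgenes off, partly together with the DNA methyltransferase MET1. RNA-directed DNA methylation is the pathway in which small RNAs guide the methyltransferase DRM2 to new targets, while MET1, CMT3 and the remodeler DDM1 maintain methylation that is already there. HDA6 is also known for roles in flowering time, jasmonate signalling and freezing tolerance.

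A level below is the log2 processed signal of a probe minus the 75th percentile of its array, so that levels of 1 probe can be compared between arrays but levels of different probes cannot be set against each other. Calls required more than a 2-fold change together with an adjusted p under 0.05 (limma, Benjamini-Hochberg). The arrays had 77.2% to 80.6% of spots well above background, none saturated, and replicate arrays of a genotype correlated at 0.990 to 0.993 over the tested probes. The ros1-1 hda6-9 replicate 1 array and the ros1-1 replicate 2 array lay on 1 slide, the other 2 arrays of the comparison on 2 further slides. No array of ros1-1 hda6-9 shared a slide with ros1-1 hda6-10 or C24. Differences from these 2 genotypes therefore cannot be told apart from differences between slides. The difference within the shared slide is given beside the main results and is no independent check, since its 2 arrays also gave the calls. A fit with slide as a block rests on that same difference. In whole seedlings, fewer cells of a type and less RNA per cell cannot be told apart.

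At the mutated locus, the signal of both HDA6 probes was higher in ros1-1 hda6-9, and that of the gene next to HDA6 fell to near background. The first HDA6 (AT5G63110) probe read 0.90 and 0.84 on the ros1-1 hda6-9 arrays, against -0.17 and -0.20 on the ros1-1 arrays, a log2 change of 1.05 ± 0.07 (SE, adjusted p = 0.000679 in limma). The second probe of HDA6 read -4.97 and -4.85 in ros1-1 hda6-9, against -6.37 and -6.45 in ros1-1, a 2.83-fold rise (adjusted p = 0.000261 in limma). Both probes were above every array of ros1-1, C24 and ros1-1 hda6-10. Where these probes lie relative to the insertion was not given, so the values do not check the label as a loss of transcript would. By RT-PCR, the study detected no full-length HDA6 transcript in either hda6 mutant. The probe signals therefore cannot be read as a rise of the full-length transcript. The rise of the first probe was 0.97 after a median shift, just short of 2-fold, and that of the second was 0.68 on the log2 scale with normexp background correction (adjusted p = 0.0847 in limma).

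AT5G63100, the gene that precedes HDA6 in the annotation, had the largest fitted fall of all annotated genes tested. Its probe read -10.83 and -10.42 on the ros1-1 hda6-9 arrays, where it was not well above background, against -1.73 and -1.54 on the ros1-1 arrays. It averaged -1.66 in ros1-1 hda6-10 and -1.67 in C24. The signal was near background in 1 genotype of 4 and level in the other 3. The fall was at least 101-fold (log2 -8.99 as fitted, adjusted p = 1.01e-05 in limma), and the probe was also called lower than in ros1-1 hda6-10 (adjusted p = 0.000142 in limma). The genes around this pair stayed within 2-fold, with 1 exception. On the side of AT5G63100, LOB (LATERAL ORGAN BOUNDARIES) differed by -0.08 at its brighter probe and the jumonji gene AT5G63080 by 0.02. On the far side, AT5G63120 differed by -0.07 and AT5G63130 by -0.04. Of the 12 genes tested within 6 places of HDA6, AT5G63070 was the only other one called (log2 1.31, adjusted p = 0.00742 in limma), and PAP29 and AT5G63135 had adjusted p under 0.05 at changes of 0.54 and 0.41. Whether the insertion reaches AT5G63100 was not tested.

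**Figure D1:**
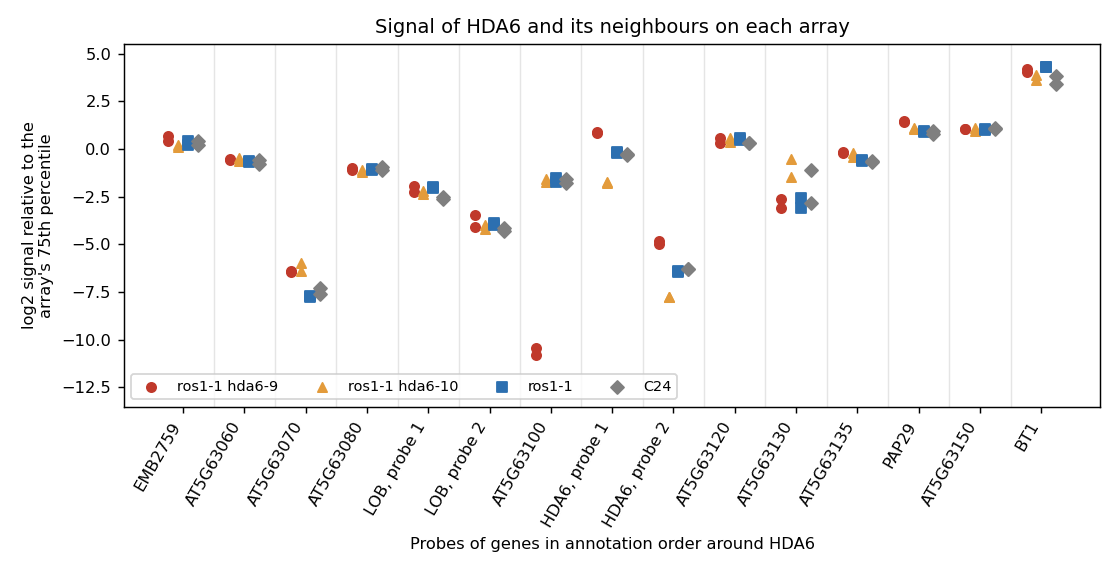
Levels of HDA6 and of the tested genes within 6 places of it in annotation order, with 1 point per array (y axis, log2 signal relative to the array's 75th percentile). AT5G63100 stands near -10.6 on both ros1-1 hda6-9 arrays and near -1.7 on all other arrays, while HDA6 is highest in ros1-1 hda6-9.

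Over all probes, more transcripts were higher than lower in ros1-1 hda6-9, and those that rose did so by more. Of 35381 tested probes, 1521 were called higher (4.3%) and 485 lower (1.37%), which stand for 952 and 344 annotated genes. The median log2 change was 2.06 among probes called higher and -1.60 among those called lower, against 0.02 over all tested probes. A change above 16-fold was fitted for 279 probes that rose and 7 that fell. Of the 1521 probes called higher, 421 (27.7%) were well above background on both ros1-1 hda6-9 arrays and on neither ros1-1 array. The reverse held for 114 of the 485 probes called lower, so this pattern was not particular to the rises. Calls were more frequent among dim probes: when probes well above background on both ros1-1 arrays were split into 5 bins by their level in ros1-1, 9.00% of the dimmest bin and 0.414% of the brightest were called higher, and 2.81% of the dimmest and 0.651% of the brightest were called lower. Within the shared slide, 1433 of the 1517 raised probes read on both arrays differed by more than 2-fold in the same direction, as did 432 of 484 lowered probes. These arrays also gave the calls, so this agreement was largely fixed by the selection. With slide as a block the counts were 676 higher and 127 lower. Between the alleles, whose arrays shared no slide, 190 probes were called higher in ros1-1 hda6-9 than in ros1-1 hda6-10 (0.537%) and 507 lower (1.43%).

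The genes with the largest rises are for the most part loci without a gene symbol. AT3G43572 read 1.32 and 1.07 on the ros1-1 hda6-9 arrays, against -8.02 and -7.98 on the ros1-1 arrays. QQS, a gene of recent origin that modulates starch content, read 0.79 and 1.08 on the ros1-1 hda6-9 arrays, against -7.72 and -8.26 on the ros1-1 arrays. AT4G16215 read 4.05 and 3.95 on the ros1-1 hda6-9 arrays, against -3.71 and -4.44 on the ros1-1 arrays. The arrays of each genotype lay within 1 log2 unit of each other at these genes and the genotypes were over 7 units apart. AT3G43833 followed with a rise of 7.37, AT1G35320 with 7.01 and AT3G14670 with 6.81. REM22, a reproductive meristem gene of the B3 family of DNA-binding proteins, read -1.73 and -1.88 in ros1-1 hda6-9, against -8.05 and -8.15 in ros1-1 (log2 6.29 ± 0.15 SE, adjusted p = 1.96e-05 in limma). AT5G35480 read 4.91 and 5.11 in ros1-1 hda6-9, against -0.86 and -1.14 in ros1-1. The other 4 of the 12 genes, AT3G54730, AT5G01080, AT3G01345 and AT3G28899, rose by 5.81 to 6.40. Adjusted p was at most 0.00104 over the 12 genes, and every one kept its call with slide as a block and with any array left out.

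A further 8 genes with the largest bounds of rise had no signal well above background on either ros1-1 array. Their rise is a lower bound: the mean level in ros1-1 hda6-9 was set against a floor in ros1-1, which on each array was the dimmest signal still well above background or the probe's own signal, whichever was higher. SDC, an F-box gene silenced by DNA methylation in seedlings, read -0.25 and -0.02 in ros1-1 hda6-9, against -10.70 and -10.94 in ros1-1, a rise of at least 382-fold. AT4G08691 rose at least 270-fold, AT5G26622 at least 208-fold and AT1G47265 at least 162-fold. AT5G39493, AT3G42723, AT4G18900 and AT3G43574 rose at least 120-fold each, and AT5G41660, an endogenous target of HDA6, at least 79.2-fold. The genotypes did not overlap at any of these probes, which held for every called probe and for 61.8% of all tested probes. In C24, AT5G39493 averaged -6.42, AT1G47265 -5.60 and AT5G26622 -4.15, and ros1-1 hda6-9 was above C24 at these 3 genes by 5.04, 4.23 and 3.13 (adjusted p = 6.39e-05, 0.000137 and 0.0278 in limma). The 3 probes with no gene match that rose most among those well above background on all 4 arrays, A_84_P94029, A_84_P767494 and A_84_P792748, rose by 10.46, 9.40 and 9.24. The first and last of them were designed to 1 noncoding transcript. Probes without a transcript accession were called higher in 17.9% of cases, those of annotated genes in 3.59%. Of those called higher, 69 of 113 and 281 of 1065 were not well above background on either ros1-1 array. Such probes entered the test only through another genotype, so this contrast partly follows from the filter.

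**Figure D2:**
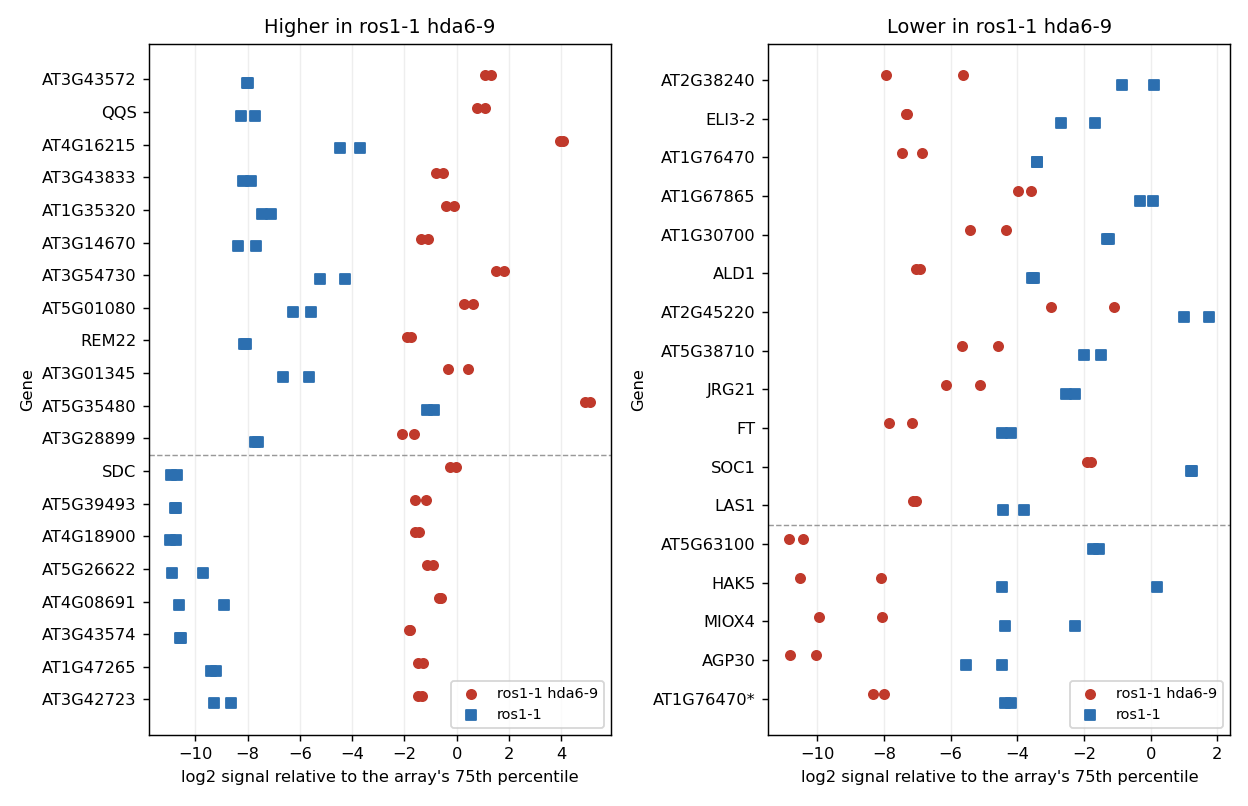
Levels of the genes with the largest changes, 1 point per array (x axis, log2 signal relative to the array's 75th percentile), with ros1-1 hda6-9 in red circles and ros1-1 in blue squares. Below the dashed lines stand genes read above background in 1 genotype only, and above the lines those read on all 4 arrays; the asterisk marks a second probe of AT1G76470.

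Most genes of the silencing machinery were not called. In the list of RNA-directed DNA methylation genes, 3 of 22 tested members rose and none fell, with a median log2 change of 0.34, against 0.02 over all annotated genes, of which 4.27% were called higher and 1.5% lower by their brightest probe. AGO9, an Argonaute of reproductive tissue, read -2.79 and -2.64 in ros1-1 hda6-9, against -7.26 and -8.10 in ros1-1 (log2 4.97, adjusted p = 0.00161 in limma). DRM1, a paralog of DRM2, read -6.05 and -6.06 in ros1-1 hda6-9, against -10.81 and -10.97 in ros1-1, a rise of at least 6.3-fold. CLSY1, a remodeler that helps Pol IV to its loci, rose by 1.39 (adjusted p = 0.00095 in limma). NRPE1, NRPD2A, DCL3, AGO4, AGO6 and IDN2 rose by less than 2-fold, by 0.38 to 0.60, with adjusted p between 0.0132 and 0.0463 in limma. No member of the list fell with an adjusted p under 0.05. Without a minimum fold change, 3087 of all 35381 tested probes were higher. DRM2 itself differed by 0.14 (adjusted p = 0.315 in limma). DRM1 was also higher in ros1-1 hda6-9 than in ros1-1 hda6-10, by 1.02 ± 0.18 (SE, adjusted p = 0.0441 in limma). With normexp background correction its rise over ros1-1 was 0.76 (adjusted p = 0.0584 in limma).

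Of 18 genes of maintenance methylation and demethylation, none rose and DML3, a DNA glycosylase related to ROS1, fell (median of the list 0.18). For this list and the deacetylases below, the shares over all annotated genes were again 4.27% higher and 1.5% lower. DML3 read -5.30 and -5.40 in ros1-1 hda6-9, against -4.20 and -4.03 in ros1-1 (log2 -1.24, adjusted p = 0.000997 in limma). It averaged -4.14 in ros1-1 hda6-10, and the difference between the alleles was -1.21 ± 0.09 (SE, adjusted p = 0.015 in limma). With normexp background correction DML3 differed by -0.78, under 2-fold. MET1 differed by 0.71 (adjusted p = 0.0256) and ROS1 by -0.45 (adjusted p = 0.0738 in limma), both under 2-fold. IDM1, CMT3, DDM1 and SUVH4 (KRYPTONITE, a histone H3K9 methyltransferase) lay within 0.52 of ros1-1. Of 17 histone deacetylases, 3 rose and none fell (median 0.09): HDA6, HDA7 and HDA18. HDA7 read -4.64 and -4.73 in ros1-1 hda6-9, against -8.69 and -8.42 in ros1-1, where 1 of the arrays was well above background (adjusted p = 0.00411 in limma), and HDA18 rose by 2.06 (adjusted p = 0.0013 in limma). HDA19, another class I deacetylase, differed by 0.07. HDA7 (adjusted p = 0.127) and HDA18 (adjusted p = 0.0518 in limma) were no longer called with slide as a block.

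IBM1 was the only annotated gene with probes called in both directions, and was named for that after its values were seen. It encodes a histone H3K9 demethylase that keeps this mark out of gene bodies, and is known to make a long and a short transcript depending on methylation of a large intron. The 2 probes designed to 1 RefSeq transcript of IBM1 fell, by 1.74 and 1.68 (adjusted p = 0.000176 and 0.000928 in limma), and the probe designed to another transcript rose by 1.21 (adjusted p = 0.00156 in limma). The first of the falling probes averaged -2.06 in ros1-1 hda6-9 and -0.32 in ros1-1. The other falling probe read -4.51 and -4.16 in ros1-1 hda6-9, against -2.65 and -2.67 in ros1-1. The rising probe read -2.05 and -1.97 in ros1-1 hda6-9, against -3.14 and -3.29 in ros1-1. The arrays of the genotypes were apart at all 3 probes, as at every called probe and at 61.8% of all tested probes. With slide as a block the rise was 1.24 (adjusted p = 0.0595 in limma) and both falls stayed called. Between ros1-1 hda6-9 and ros1-1 hda6-10 the 2 falling probes differed by -0.18 ± 0.08 and -0.22 ± 0.12 and the rising probe by 0.20 ± 0.10 (SE, adjusted p = 0.257 to 0.33 in limma).

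Of 7 methylation-silenced and imprinted genes tested, 5 rose and none fell (SDC, QQS, AT5G41660, FIS2 and PHE1), and 4 of them were called with slide as a block. By their brightest probe, 4.27% of all annotated genes were called higher and 1.5% lower. This list was partly drawn from genes known to be HDA6 targets, so its direction is no independent evidence. FIS2, a Polycomb gene of the endosperm, read -6.95 and -7.26 in ros1-1 hda6-9, against -10.44 and -10.59 in ros1-1, a rise of at least 3.05-fold. It was not well above background on either ros1-1 hda6-10 array. FIS2 lies near the limit of detection, and with normexp background correction its rise was 0.18 (adjusted p = 0.688 in limma). PHE1, an imprinted MADS-box gene, rose by 1.49. Endogenous RD29A, whose promoter drives the LUC reporter, read -4.79 and -4.31 in ros1-1 hda6-9, against -5.94 and -6.24 in ros1-1 (log2 1.54 ± 0.81 SE, adjusted p = 0.253 in limma). Its arrays did not overlap between the genotypes, which held for 61.8% of all tested probes. Among the alternative fits, RD29A was called higher only with the 4 arrays compared (adjusted p = 0.0345 in limma). Its SD was 0.34 in ros1-1 hda6-9 and 0.21 in ros1-1. It was 1.72 in C24 and 0.80 in ros1-1 hda6-10, which share in the main estimate of the spread.

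The flowering activators FT and SOC1 fell in ros1-1 hda6-9, while MAF4 and MAF5, repressors of the FLC family, rose. Of 11 genes of the FLC, MAF and floral integrator list, 3 fell (FT, SOC1 and CO) and 2 rose (MAF4 and MAF5). All annotated genes had shares of 1.5% lower and 4.27% higher by their brightest probe. The median of the list was -0.48 and ran between -0.78 and 0.22 over the alternatives. FT, the mobile flowering signal, read -7.15 and -7.84 in ros1-1 hda6-9, against -4.46 and -4.19 in ros1-1, an 8.96-fold fall (adjusted p = 0.000996 in limma). SOC1, a MADS-box gene downstream of FT, read -1.78 and -1.92 in ros1-1 hda6-9, against 1.25 and 1.22 in ros1-1, an 8.48-fold fall (adjusted p = 0.00161 in limma). CO, which activates FT, fell by 1.07 at its brighter probe (adjusted p = 0.0371), but was not called with any 1 array left out (0.107 to 0.146) or with slide as a block (0.301 in limma). MAF4 read -0.63 and -0.36 in ros1-1 hda6-9, against -1.95 and -1.89 in ros1-1, and MAF5 rose 2.3-fold (adjusted p = 0.00457 in limma). With normexp background correction the rise of MAF5 was 0.98 on the log2 scale, just under 2-fold. FLC itself differed by 0.68 ± 0.23 (SE, adjusted p = 0.108 in limma) and SVP, another repressor, by -0.96 ± 0.25 (SE, adjusted p = 0.0645 in limma), neither of which passed the test. SWEET10, a sugar transporter, and AGL8 (FRUITFULL), a MADS-box gene, both chosen after their values were seen, fell by 2.79 and 1.79.

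FT and SOC1 were also lower than in the other allele. FT averaged -5.43 in ros1-1 hda6-10, a difference of -2.07 ± 0.24 (SE, adjusted p = 0.0236 in limma), and SOC1 averaged 0.02 there, a difference of -1.86 ± 0.26 (SE, adjusted p = 0.0289 in limma). Against C24, FT differed by -1.91 (adjusted p = 0.00704 in limma) and SOC1 by -1.93 (adjusted p = 0.00954 in limma). MAF4 and MAF5 did not differ between the alleles by the test (0.05 ± 0.12 and -0.05 ± 0.13 SE, adjusted p = 0.821 and 0.842 in limma). SEP1, a floral organ gene, fell by 2.05 against ros1-1, and differed by -2.19 ± 0.12 from ros1-1 hda6-10 (SE, adjusted p = 0.00974 in limma). Within the shared slide FT differed by -2.95, CO by -0.98, MAF4 by 1.26 and MAF5 by 1.01. With slide as a block FT and SWEET10 stayed called, and SOC1 (adjusted p = 0.0857), AGL8 (0.153), MAF4 (0.0508) and MAF5 (0.0517 in limma) did not pass.

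**Figure D3:**
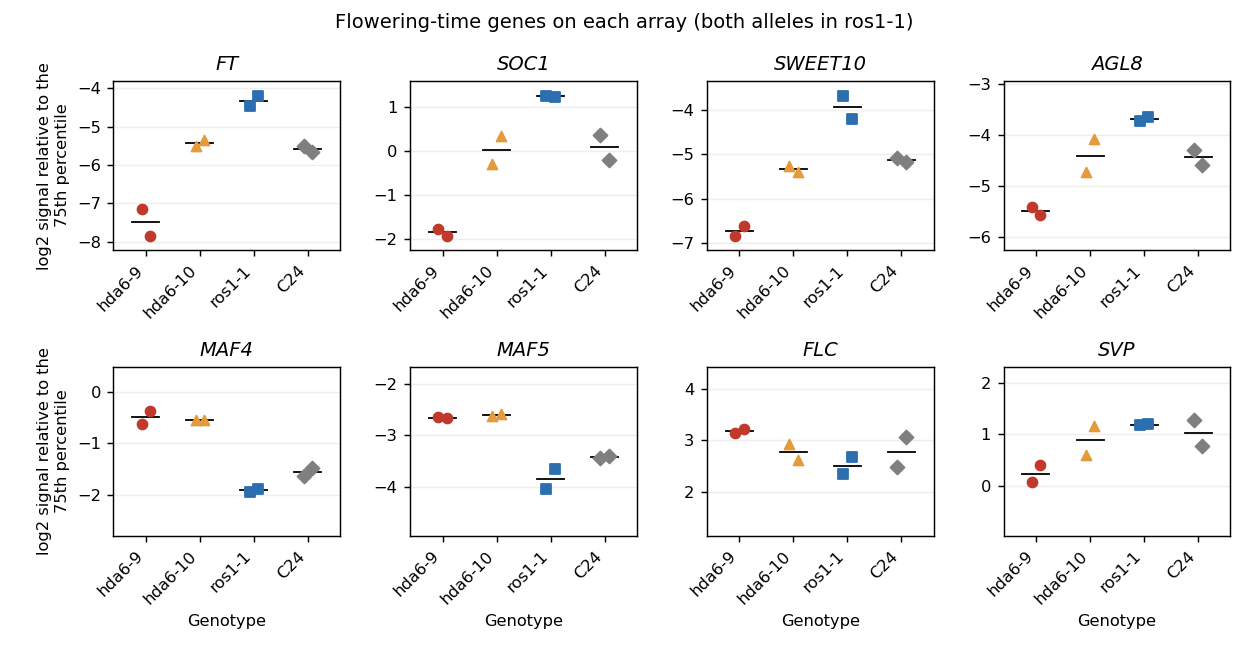
Levels of 8 flowering-time genes on each array by genotype (y axis, log2 signal relative to the array's 75th percentile, with its own range in each panel; bars are means of 2 arrays). FT, SOC1, SWEET10 and AGL8 are lowest on both ros1-1 hda6-9 arrays, while MAF4 and MAF5 are higher in both hda6 alleles than in ros1-1.

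Among probes read above background on each of the 4 arrays, the genes with the largest falls included members of the jasmonate, salicylic acid and lignin lists beside FT and SOC1. AT2G38240, placed here with genes of jasmonate breakdown, read -7.93 and -5.63 in ros1-1 hda6-9, against 0.09 and -0.86 in ros1-1 (log2 -6.39 ± 0.79 SE, adjusted p = 0.00662 in limma). ELI3-2, a defence-induced cinnamyl alcohol dehydrogenase, read -7.32 and -7.29 in ros1-1 hda6-9, against -2.68 and -1.67 in ros1-1 (adjusted p = 0.000586 in limma). ALD1, an aminotransferase needed to make the immune signal pipecolic acid, read -7.02 and -6.93 in ros1-1 hda6-9, against -3.51 and -3.57 in ros1-1 (adjusted p = 0.00189 in limma). At these genes the 2 genotypes were far apart, with the replicates of AT2G38240 spread most. AT1G76470, AT1G67865, AT1G30700, AT2G45220 (pectin methylesterase 17), AT5G38710, JRG21 (jasmonate-regulated gene 21) and LAS1 (lanosterol synthase) had log2 changes between -3.75 and -2.97, and FT and SOC1 complete these 12 genes. All 12 differed by more than 2-fold within the shared slide, whose arrays also gave these calls, and 5 kept their call with slide as a block. Whichever of the 4 arrays was left out, AT1G76470 (adjusted p = 0.0695 to 0.089) and LAS1 (0.0896 to 0.134 in limma) were not called. AT2G45220 (up to 0.132), AT5G38710 (up to 0.0999) and JRG21 (up to 0.0718 in limma) were not called without ros1-1 hda6-9 replicate 1 or without either ros1-1 array.

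ELI3-2 and AT1G67865 were also lower than in ros1-1 hda6-10, with differences of -2.97 ± 0.33 and -2.37 ± 0.22 (SE, adjusted p = 0.0233 and 0.0172 in limma). For ALD1 the alleles differed by -0.23 (adjusted p = 0.671 in limma). Over all annotated genes the median log2 change was 0.02, with 4.27% called higher and 1.5% lower by their brightest probe. These values stand beside each list below. Of 20 salicylic acid and PR genes tested, 5 fell and none rose, with 19 below 0 and a median of -1.05. The 5 were ALD1, NIMIN1, which binds the immune coactivator NPR1, DMR6, a salicylic acid hydroxylase, and the transcription factors SARD1 and WRKY70. NIMIN1 read -3.83 and -4.27 in ros1-1 hda6-9, against -1.34 and -1.81 in ros1-1. DMR6 read 0.77 and 0.47 in ros1-1 hda6-9, against 1.98 and 2.12 in ros1-1. The pathogenesis-related marker genes did not pass: PR1 differed by -0.78 ± 0.65, PR2 by -1.52 ± 0.38 and PR5 by -1.39 ± 0.71 (SE). With slide as a block none of the 5 was called (for NIMIN1 adjusted p = 0.227, for DMR6 0.118 and for SARD1 0.115 in limma), and within the shared slide the list median was -1.05. NIMIN1 was not called with any 1 of the 4 arrays left out (adjusted p = 0.0537 to 0.0841 in limma), nor SARD1 without ros1-1 hda6-9 replicate 1 or either ros1-1 array (up to 0.0851).

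Of 67 WRKY transcription factors tested, 9 fell and none rose (median -0.25), while with slide as a block 2 were lower and 1 higher. The largest falls were those of WRKY51 (-2.59), WRKY8 (-2.02), WRKY59 (-1.91) and WRKY63 (-1.79), and WRKY46, WRKY54 and WRKY70, known for overlapping roles in salicylic acid responses, fell by 1.78, 1.35 and 1.13. With 1 array left out, 2 to 8 WRKY genes were called lower; of the 4 largest falls, WRKY63 was lost without ros1-1 hda6-9 replicate 1 (adjusted p = 0.056 in limma), WRKY51 without that array or ros1-1 replicate 1 (up to 0.0831), WRKY8 without that array or either ros1-1 array (up to 0.154), and WRKY59 without ros1-1 hda6-9 replicate 2 or either ros1-1 array (up to 0.11). Of 21 genes of jasmonate synthesis and breakdown, AT2G38240, JRG21 and AT5G05600 (-2.14) fell and none rose (median -0.12), no synthesis gene was called, and 1 of the list was lower with slide as a block. AT5G05600 was called only without ros1-1 replicate 2 (adjusted p up to 0.0722 in limma). Of 22 jasmonate signalling and response genes, VSP2 (-2.73), VSP1 (-2.72) and the repressor JAZ9 (-1.07) fell and none rose (median -0.40), and none was called with slide as a block. VSP1 and VSP2 are vegetative storage protein genes of like sequence, which these probes may not tell apart, and they averaged -2.63 and -3.17 in C24, not far from ros1-1 hda6-9. VSP1 and VSP2 were called only without ros1-1 hda6-9 replicate 1 (adjusted p up to 0.0917 and 0.0922 in limma), and JAZ9 was under 2-fold without ros1-1 hda6-9 replicate 2. Among camalexin and indole glucosinolate genes, CYP83B1 (-1.06) was the 1 of 19 called lower and none was higher (median -0.64), though not with slide as a block or without ros1-1 hda6-9 replicate 1 or either ros1-1 array (adjusted p up to 0.128 in limma), and ELI3-2 was the only 1 of 18 lignin and cinnamyl alcohol dehydrogenase genes called (median -0.12).

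Of 13 root markers tested, 2 fell and none rose, and none was called with slide as a block. The list had 10 members below 0 and a median of -0.93, which was -0.45 with normexp background correction. Their summed linear level was 0.645 to 0.878 in ros1-1 hda6-9, against 1.18 to 1.22 in ros1-1. This sum adds probes whose levels are not comparable, and it weighs the brightest most, PHO1, which differed by -0.47. RHD6, a regulator of root hairs, fell at least 4.42-fold and CASP5, a Casparian strip protein, at least 1.49-fold, and CASP5 was not called with any 1 array left out (adjusted p = 0.0771 to 0.132 in limma). The root hair genes PRP3 and COBL9 differed by -2.60 and -2.13 without passing the test. WER, GL2 and TIP2;3 differed the other way, by 0.24, 0.60 and 0.50, and did not pass either. Beside AT5G63100, the largest bounds of fall among probes not well above background on either ros1-1 hda6-9 array were those of 4 more probes: the potassium transporter gene HAK5 by at least 71.6-fold, MIOX4 (myo-inositol oxygenase) by at least 31.3-fold, a second probe of AT1G76470 by at least 14.7-fold and AGP30, an arabinogalactan protein gene, by at least 9.77-fold. HAK5 varied widely within genotypes, at -10.50 and -8.09 in ros1-1 hda6-9, against 0.18 and -4.46 in ros1-1, and averaged -7.69 in C24. None of these 4 was called with slide as a block (adjusted p = 0.0516 to 0.254 in limma). HAK5 was called only without ros1-1 replicate 2 (adjusted p up to 0.156 in limma), and MIOX4 (up to 0.164), AGP30 (up to 0.13) and the second probe of AT1G76470 (up to 0.0795) with no array left out. Photosystem and RuBisCO genes, which stand for shoot tissue, had a median of 0.16 with LHCB2.3 (1.04) the 1 of 45 called higher. Within the shared slide this list's median was -0.05. LHCB2.3 was 0.95 after a median shift, and was called only without ros1-1 replicate 2 among the fits with 1 array left out (adjusted p up to 0.157 in limma). The part of organ proportions in the falls was not tested.

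**Figure D4:**
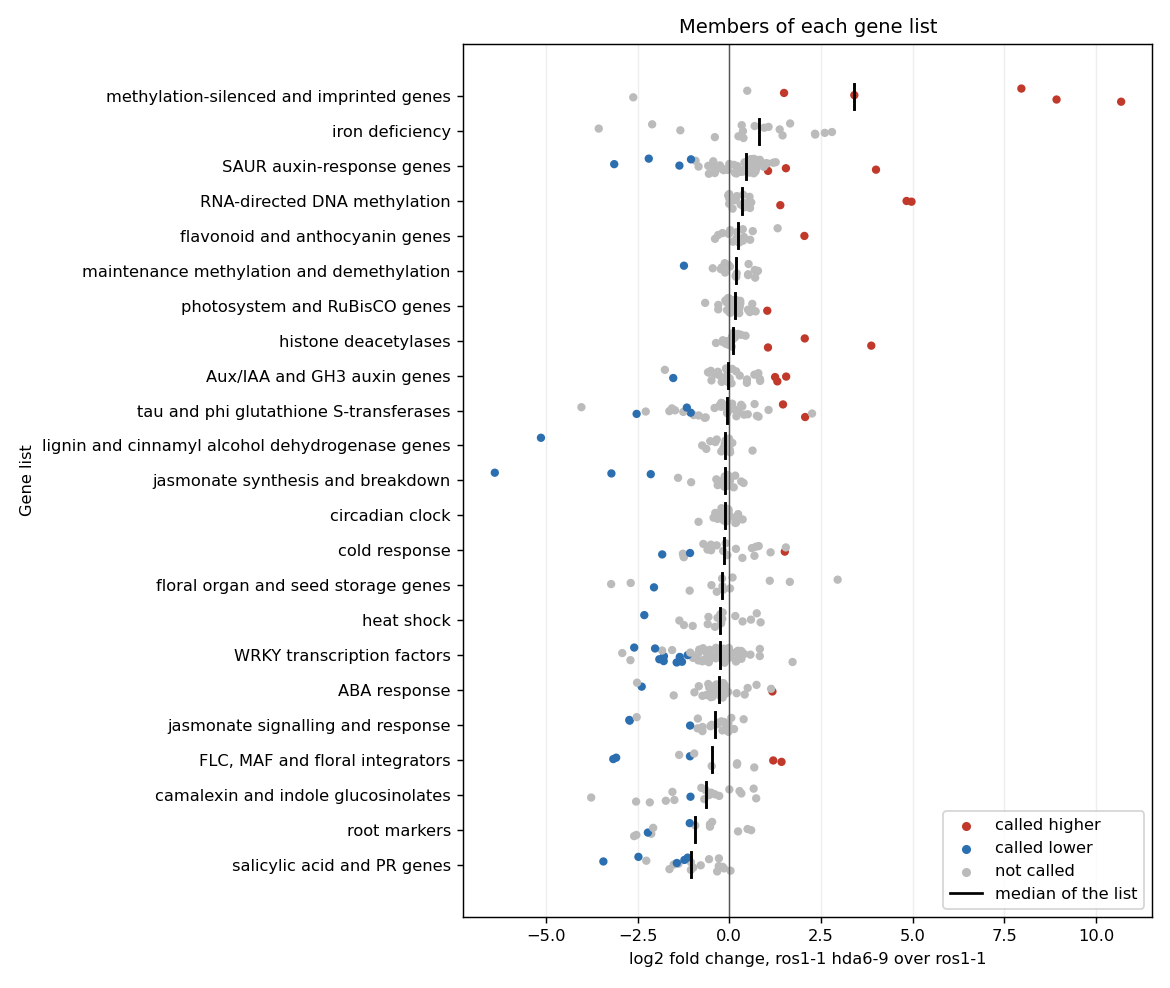
Log2 fold change of ros1-1 hda6-9 over ros1-1 for every tested member of 23 gene lists (x axis), with members called higher in red, called lower in blue and the rest in grey; black bars are list medians. Fold changes are as fitted, also where a probe was near background in 1 genotype. Salicylic acid genes lie mostly below 0 (median -1.05).

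Cold, ABA and hormone lists held calls in both directions, and most of their members were not called. Of 22 cold response genes, COR15B, a chloroplast protein that protects membranes in the cold, rose by 1.51, and ZAT12 and RAV1, both transcription factors, fell by 1.83 and 1.07 (median -0.13). ZAT12 read -1.11 and -0.13 in ros1-1 hda6-9, against 1.19 and 1.23 in ros1-1, and differed from ros1-1 hda6-10 by -1.89 ± 0.30 (SE, adjusted p = 0.0361 in limma). RAV1 was higher than in ros1-1 hda6-10, by 1.55 ± 0.18 (SE, adjusted p = 0.0236 in limma). Of 35 ABA response genes, the bZIP factor ABI5 rose by 1.18 and NAC019 fell by 2.39, with 29 below 0 and a median of -0.27. NAC019 also differed from ros1-1 hda6-10, by -3.44 ± 0.49 (SE, adjusted p = 0.0299 in limma). With slide as a block ZAT12 stayed called (adjusted p = 0.0215), and COR15B (0.0693), RAV1 (0.232), ABI5 (0.107) and NAC019 (0.185 in limma) did not pass. NAC019 was not called with any 1 array left out (0.0773 to 0.142), ZAT12 not without either ros1-1 array (up to 0.0892), COR15B not without either ros1-1 hda6-9 array (up to 0.115) and RAV1 only without ros1-1 hda6-9 replicate 1 (up to 0.0936 in limma).

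Of 64 SAUR genes, small auxin-induced transcripts, SAUR40, SAUR79 and SAUR71 rose, SAUR37, SAUR55, SAUR33 and SAUR70 fell, and the median was 0.45. Over all annotated genes 4.27% were called higher and 1.5% lower by their brightest probe. The 3 of 64 SAUR genes called higher lie near the 4.27%, and the 4 of 64 called lower lie above the 1.5%. With slide as a block 2 SAUR genes were higher and none was lower. SAUR40 read -5.30 and -5.14 in ros1-1 hda6-9, against -9.27 and -9.17 in ros1-1, a rise of at least 11.3-fold that was called under every alternative. With 1 array left out 0 to 2 SAUR genes were called lower, and SAUR37 was among them in no case (adjusted p = 0.0535 to 0.108 in limma). Of 32 Aux/IAA and GH3 genes, GH3.9 (1.55), IAA34 (1.31) and IAA20 (1.25) rose and GH3.3 (-1.53) fell (median -0.04), and none was called with slide as a block. With any 1 array left out IAA34 was not called (adjusted p = 0.0671 to 0.16 in limma), and GH3.3 was called only without ros1-1 replicate 2 (up to 0.106). IAA20 was lost without ros1-1 hda6-9 replicate 1 or ros1-1 replicate 1 (up to 0.0526). Among 39 tau and phi glutathione S-transferases, GSTF5 and GSTU8 (1.46) rose and GSTU14, GSTU4 (-1.16) and GSTU15 (-1.05) fell (median -0.06), and 1 was higher and 1 lower with slide as a block. GSTF5 was not well above background on either ros1-1 array or on 1 of the ros1-1 hda6-9 arrays, nor GSTU14 on 1 ros1-1 hda6-9 array, so no fold is given for them. GSTU14 was not called with any 1 array left out (adjusted p = 0.0567 to 0.0702 in limma), and GSTF5 (up to 0.135), GSTU8 (up to 0.147) and GSTU4 (up to 0.097) each stayed called in 1 of the 4 fits with an array left out. LDOX, an anthocyanin enzyme, was the only 1 of 16 flavonoid genes called (2.05), with a median of 0.24, and HSFA2 the only 1 of 17 heat shock genes (-2.32, median -0.25). LDOX was not called with any 1 array left out (adjusted p = 0.0625 to 0.129 in limma), nor HSFA2 without ros1-1 hda6-9 replicate 2 (0.0502). None of 26 circadian clock genes was called by limma, or at an unadjusted p under 0.05 with a 2-fold change (median -0.13). No iron deficiency gene passed either in limma, although 14 of 18 were above 0 with a median of 0.82, and at an unadjusted p under 0.05 with a 2-fold change 3 were higher and 2 lower. The transcription factor gene bHLH101 differed by 2.80 ± 0.82 (SE, adjusted p = 0.081) and the ferritin gene FER1 by -3.56 ± 1.03 (SE, adjusted p = 0.0793 in limma). SEP1 was the only 1 of 14 floral organ and seed storage genes called (median -0.19).

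Genes that rose lay on all 5 chromosomes, and the window densest in them was on chromosome 3. In windows of 200 consecutive tested genes, the median window held 8 genes called higher and 3 called lower. The window that runs between AT3G27890 and AT3G43572 held 40 called higher (20.0%) and 1 called lower, against 4.44% and 1.6% over all 21435 genes. The next densest windows, 1 on chromosome 1 between AT1G35190 and AT1G47500 and 1 on chromosome 2 between AT2G10965 and AT2G17040, held 20 each. Genes called lower reached 8 in a window at most, and the shares by chromosome ran between 4.24% and 5.01% for genes called higher.

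**Figure D5:**
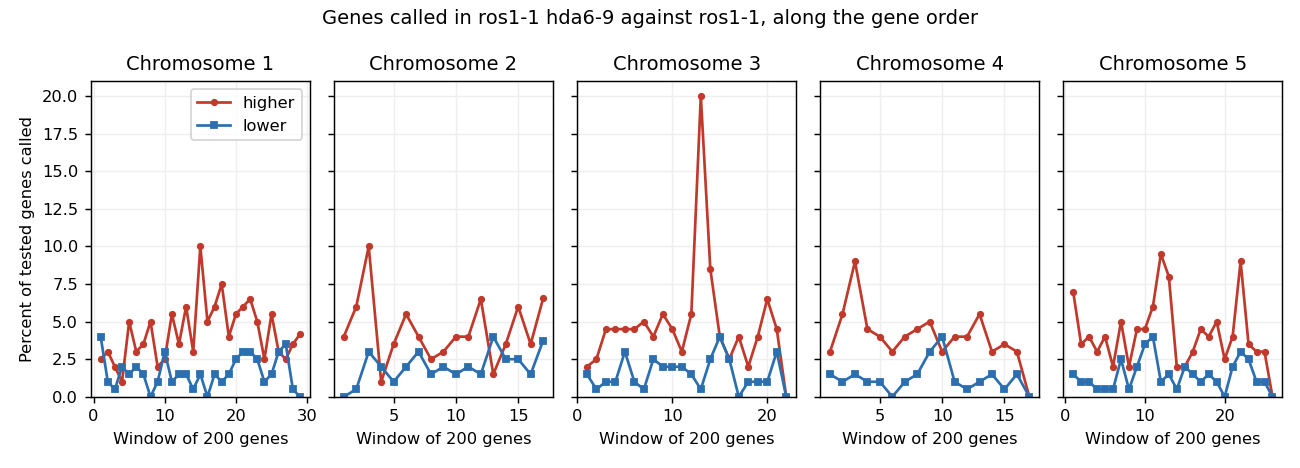
Percent of tested annotated genes called higher (red) and lower (blue) in ros1-1 hda6-9 against ros1-1 (y axis), in windows of 200 consecutive genes in annotation order (x axis, window number) on each chromosome; the last window of a chromosome holds fewer genes. The highest point, 20.0%, is window 13 of chromosome 3.

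Some of the raised genes were direct neighbours. CLSY1 opened a run of 5 consecutive tested genes on chromosome 3 that all rose (1.39, then AT3G42723 at least 159-fold, AT3G42725 by 1.95, AT3G42780 by 1.11 and AT3G42786 at least 4.13-fold). On chromosome 5, GRP19 (3.81), GRP20 (5.09) and AT5G07570 (4.51) lie side by side; GRP19 and GRP20 encode glycine-rich oleosin-type proteins of the pollen coat. HDA18 (2.06) adjoined AT5G61090 (2.06) and AT5G61100 (1.34). AT14A, AT3G28291 and AT3G28320 rose by 3.06, 2.65 and 3.09 and AT3G28310 at least 14.1-fold, and the C24 mean was above that of ros1-1 hda6-9 at 3 of these 4. Runs of 3 or more lowered genes were found in 2 places, AT3G46680 to AT3G46700 (at least 4.5-fold, then -1.74 and -1.85) and AT5G57510 to XTH12 (-2.81, -1.34 and -1.57). Neighbours with like sequence may share signal on an array, which was not tested.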

How the data were processed

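Per the labels, total RNA was labelled with Cy3 and hybridized to one-colour Agilent arrays. The authors deposited Feature Extraction 10.7.1.1 output, whose processed signal is a background-subtracted intensity on a linear scale, not normalized between arrays, and a combined table of background-subtracted intensity.

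With R 4.3.3 and limma 3.58.1, outlier spots (25 to 49 per array) and control spots were left out, log2 intensity was shifted by each array's 75th percentile, and spots of a probe were averaged. Testing required a signal well above background on each of the 2 arrays of some genotype (35381 of 43603 probes) and used 1 model with a mean per genotype over 8 arrays (4 residual and 1.80 prior degrees of freedom). The low number of arrays limits the precision. The model was tested on simulated data. RefSeq accessions matched 34285 probes to annotated genes of TAIR10.1, used for names and gene order only, since the array design names another build. Lists count a gene by its brightest probe, windows by any probe.

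Named genes were HDA6 and genes named in the study, the 12 largest rises and falls among probes above background on all 4 arrays, the 8 largest bounds of rise and 5 of fall, up to 4 called members per list, and 3 unmatched probes. SWEET10, AGL8, FLC, SVP, IBM1 and the neighbours of HDA6 were named after their values were seen, as were single list members beyond this rule. The comparison, its members and the 23 lists were chosen with earlier results of these data known. Same-numbered arrays were checked for pairing and did not deviate together, which cannot decide on a pairing because slide and number were crossed. Alternatives covered background correction, scaling, filters, arrays used, slide and replicate blocks, thresholds and leaving out each array. A planned search for promoter motifs was not run, as no promoter sequences were used here.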

Additional observations from a re-analysis of the deposited data

How the results depend on the processing

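The counts of 1521 probes higher and 485 lower stayed within 1.5 times under the median shift, quantile normalization, the combined table, no filter on dim probes, outlier spots kept, only the 4 arrays compared, slide as a random block and a trended robust prior. They were 656 and 181 with normexp background correction and 676 and 127 with slide as a fixed block, of which 642 and 68 were shared with the reported calls. Restricted to probes above background on each of the 4 arrays, 978 were higher, and with 1 probe per gene 923, both from fewer features tested. Without a minimum fold change they were 3087 and 1229. The lower count was 1398 at a 2-fold change alone, 1022 at an unadjusted p and 124 at an adjusted p under 0.01. Leaving out 1 array gave 1104 to 1240 higher and 224 to 294 lower, from fewer arrays. Except where features or arrays were fewer, the cause was not tested.

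The replicate block gave 1361 higher and 350 lower. Same-numbered arrays did not deviate together (correlation -0.376). This cannot decide whether arrays of 1 number were paired, because a pair of differently numbered arrays shared a slide. The crossed pairing, chosen after seeing the data and with 1 of its pairs on the shared slide, gave 1455 and 509. Over all named probes no called value changed sign under these alternatives, and 37 of the 93 called ones kept their call in all of them. Signal near background limits FIS2, DRM1 and the second HDA6 probe.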
